A study of Mus musculus with 4 samples.

Results

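Neutrophil-marked spots were the positions of 4 mouse tumor sections that held RNA of neutrophil genes. A spot counted as marked if it held at least 2 UMIs (unique molecular identifiers, each of which tags 1 captured RNA molecule) summed over 5 genes, S100a8, S100a9, Csf3r, Cxcr2 and Retnlg. Of 11947 spots, 329 were marked, or 2.75%. Another 1730 spots held 1 UMI of these genes, and 9888 held 0 and served as the unmarked comparison. Spots were chosen by the levels of these genes, which are therefore described and not tested.

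The sections were profiled with Visium, in which barcoded spots capture the RNA of the tissue lying above them, so that a spot is a small region that can hold several cells. MC38 cells, an established mouse colon carcinoma line, had been placed under the skin of female mice aged 8 to 12 weeks to form the tumors. The hosts were F1 offspring of C57BL/6J with CC075/UncJ (CC075F1, 2 sections) or with CC080/TauUncJ (CC080F1, 2 sections), both being strains of the Collaborative Cross panel of recombinant inbred mice. Every host carried the same treatment, 200 µg of isotype control antibody (2A3) given once when tumors measured 75 to 110 mm3, with sampling after 48 h, so that no antibody effect could be measured.

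Neutrophils are short-lived granulocytes that leave the blood for inflamed tissue and for tumors. They carry large amounts of the calcium-binding alarmins S100a8 and S100a9, which form a dimer called calprotectin. They are kept alive by granulocyte colony-stimulating factor through its receptor Csf3r, and are drawn along gradients of chemokines such as Cxcl1 and Cxcl2 through Cxcr2. Retnlg encodes a resistin-like protein of mouse granulocytes. Monocytes can also express S100a8, S100a9 and Csf3r, and neutrophil RNA is captured poorly by many methods because these cells contain little RNA and much ribonuclease.

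In this text, values over sections are listed in the order CC075F1 replicates 1 and 2, then CC080F1 replicates 1 and 2. The marked spots numbered 49, 91, 74 and 115, or 1.81%, 2.78%, 2.66% and 3.62% of the spots. Their exact 95% binomial intervals ran from 1.34% to 2.38%, 2.24% to 3.40%, 2.09% to 3.32% and 3.0% to 4.33%. These intervals cover counting error alone. The mean was 2.29% ± 0.686 (SD, n = 2) in CC075F1 and 3.14% ± 0.684 (SD, n = 2) in CC080F1, a ratio of 0.730. The strains overlapped, and the 2-sided exact permutation p was 0.667, where 0.33 is the smallest that 2 against 2 sections allow.

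Just inside the limit, 227 of the 329 marked spots held exactly 2 UMIs of the 5 genes. Beyond these, 45 spots held 3 and 57 held 4 or more, and 7 of the latter held at least 10. Just outside stood the 1730 spots with 1 UMI. The largest count in a spot was 10, 33, 6 and 32 UMIs in the 4 sections. The 7 spots with the most UMIs lay at 1 to 3 steps from the tissue edge. Their UMIs were nearly all of S100a8, S100a9 and Retnlg, the last with 7, 7 and 5 UMIs in 3 of them, and Csf3r gave at most 1. Most marked spots thus rested on a pair of molecules, and few carried a strong signal.

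The 5 genes contributed unequally. Over all spots Csf3r gave 1363 UMIs, S100a8 566, S100a9 540, Cxcr2 171 and Retnlg 45. Csf3r alone made up 50.8% of the UMIs. S100a8 and S100a9 were found together: S100a9 was detected in 19.7% of the 452 spots with S100a8 and in 2.41% of the other spots. Csf3r followed S100a8 far less, being detected in 13.5% of spots with S100a8 and in 10.6% of spots without it. Retnlg, the rarest of the genes, occurred with S100a8 in 9 of its 29 spots. These shares pool the 4 sections and are descriptions.

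The genes of the calprotectin dimer lie close to each other on chromosome 3, S100a8 at chr3:90668978-90670035 on the forward strand and S100a9 at chr3:90692632-90695721 on the reverse strand (GRCm38, GENCODE vM21). The 250 bases before the annotated start of 3 genes are shown because they hold the core letters of the element bound by C/EBP factors, regulators of granulocyte genes. S100a9 and Retnlg are rule genes and Clec4e is a gene that rose in marked spots. The sequences are from RefSeq (GRCm38.p6), written 5′ to 3′ on the strand of the gene, with the match in capitals. They lie at chr3:90695722-90695971 on the reverse strand, chr16:48872358-48872607 on the forward strand and chr6:123289872-123290121 on the reverse strand.
S100a9: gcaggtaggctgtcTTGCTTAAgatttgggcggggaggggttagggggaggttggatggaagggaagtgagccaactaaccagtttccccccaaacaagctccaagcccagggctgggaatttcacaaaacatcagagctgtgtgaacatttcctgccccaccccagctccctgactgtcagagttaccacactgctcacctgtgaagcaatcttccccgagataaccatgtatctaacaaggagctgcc
Retnlg: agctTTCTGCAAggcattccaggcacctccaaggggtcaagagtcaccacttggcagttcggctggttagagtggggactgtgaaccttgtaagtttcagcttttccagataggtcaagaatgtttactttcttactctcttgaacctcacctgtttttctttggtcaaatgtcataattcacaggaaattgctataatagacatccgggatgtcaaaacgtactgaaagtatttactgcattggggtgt
Clec4e: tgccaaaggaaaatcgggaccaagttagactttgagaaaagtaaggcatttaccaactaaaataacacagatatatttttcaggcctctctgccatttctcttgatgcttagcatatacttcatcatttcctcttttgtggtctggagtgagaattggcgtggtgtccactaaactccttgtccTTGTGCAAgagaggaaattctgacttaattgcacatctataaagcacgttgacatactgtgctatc
The letters searched were TTGCNNAA on both strands. Of the 5 rule genes 2 held a match, of the 12 called genes with an entry 1 did, and of all 32851 windows of the same length 9.56% did. Among windows of tested genes the share was 7.31%. Letters of AP-1, NF-kB and HIF elements were searched as well. They were held by 2, 1 and 3 of the 12 called genes, by 0 rule genes, and by 6.75%, 3.90% and 16.6% of all windows. Among windows of tested genes the shares were 4.49%, 4.56% and 22.1%. A gene counted if any of its windows matched, while the shares are per window. The Clec4e window also held a HIF match. A match is a description of letters and not a bound site.

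Spots were also assigned to kinds by which of the 5 genes marked them. S100 spots held at least 2 UMIs of S100a8 and S100a9 but fewer than 2 of the other 3 genes, and numbered 10, 31, 29 and 76. Receptor spots held at least 2 UMIs of Csf3r, Cxcr2 and Retnlg but fewer than 2 of the S100 genes, and numbered 29, 34, 21 and 18. Both criteria were met by 0, 3, 2 and 3 spots, and 73 spots held 1 UMI of each set. Meeting both took 4 or more rule UMIs, which only 57 spots held. The low counts thus limited how often the kinds could coincide. Csf3r supplied 83.3% of the rule UMIs of receptor spots and 3.50% of those of S100 spots, a contrast that the definition itself favours. This division was chosen after the values had been seen.

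S100 spots took 0.369%, 0.946%, 1.04% and 2.39% of the spots and were more frequent in both CC080F1 sections than in either CC075F1 section. Receptor spots took 1.07%, 1.04%, 0.753% and 0.567% and were less frequent in both CC080F1 sections. Each exact permutation p was 0.33, the smallest possible with 2 against 2, so that neither order could pass 0.05.

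**Figure D1:**
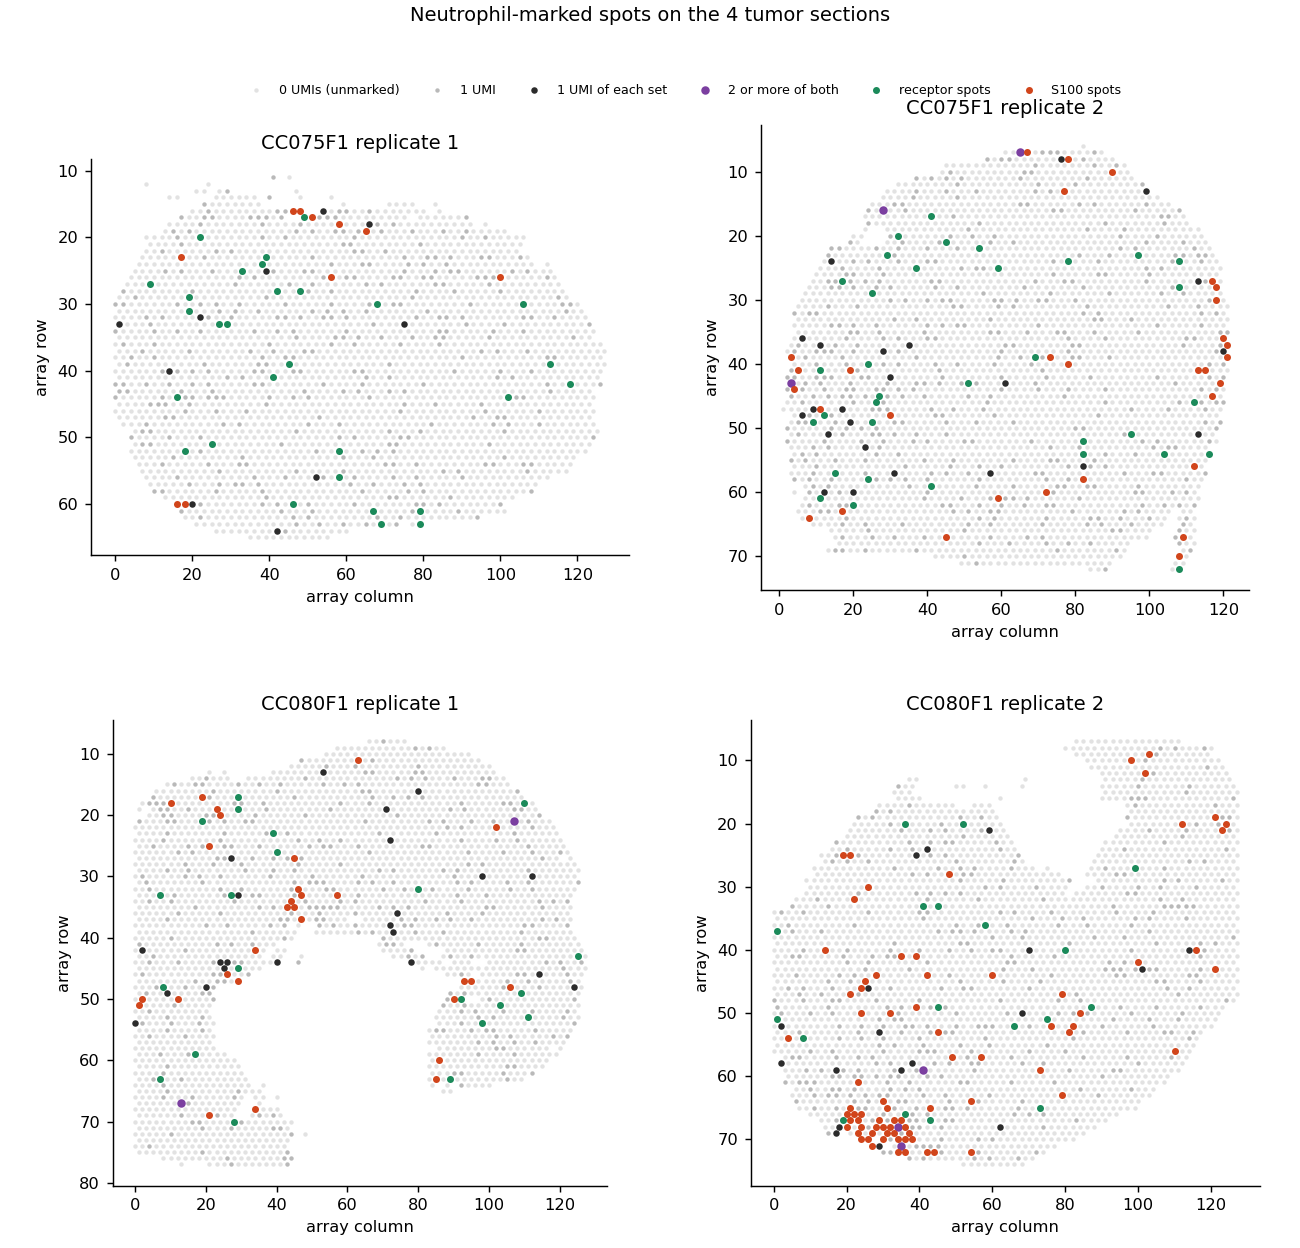
Positions of all 11947 spots on the capture grid (array column and array row, the unit being the grid step) in the 4 sections. Orange points are the 146 S100 spots, green points the 102 receptor spots, purple points the 8 spots that met both criteria and black points the 73 spots with 1 UMI of each set; unmarked and 1-UMI spots are grey. A reader should see the orange points near tissue edges and their dense patch in CC080F1 replicate 2.

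Marked spots lay near the tissue edge more often than unmarked spots of the same depth. The share within 3 grid steps of a position without tissue was 30.6%, 37.4%, 39.2% and 34.8% of marked spots. In unmarked spots drawn to the same depth it was 20.4%, 20.9%, 27.0% and 15.7%. Every section had the higher share in marked spots, and the groups of values did not overlap. The mean difference was 14.5 percentage points ± 4.05 (SD, n = 4), with an exact sign-flip p of 0.13, the smallest that 4 pairs allow. Without the group of 36 touching spots of CC080F1 replicate 2 the mean difference was 9.28 points. The marked share of that section was then 13.9%, below its unmarked share of 15.7%, and the sections no longer pointed one way. The median distance was 6, 5, 4 and 6 steps in marked spots and 9, 10, 6 and 9 steps in unmarked spots.

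S100 spots lay nearer to the edge than receptor spots. Of S100 spots 60.0%, 58.1%, 48.3% and 40.8% lay within 3 steps of the edge, against 17.2%, 14.7%, 33.3% and 11.1% of receptor spots. With all S100 and receptor spots counted, the lowest S100 value stood above the highest receptor value. The difference was 32.7 percentage points ± 13.4 (SD, n = 4), again with the smallest possible exact p of 0.13. Median distances were 2.5, 2, 4 and 4.5 steps for S100 spots and 8, 7.5, 5 and 6.5 steps for receptor spots.

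**Figure D2:**
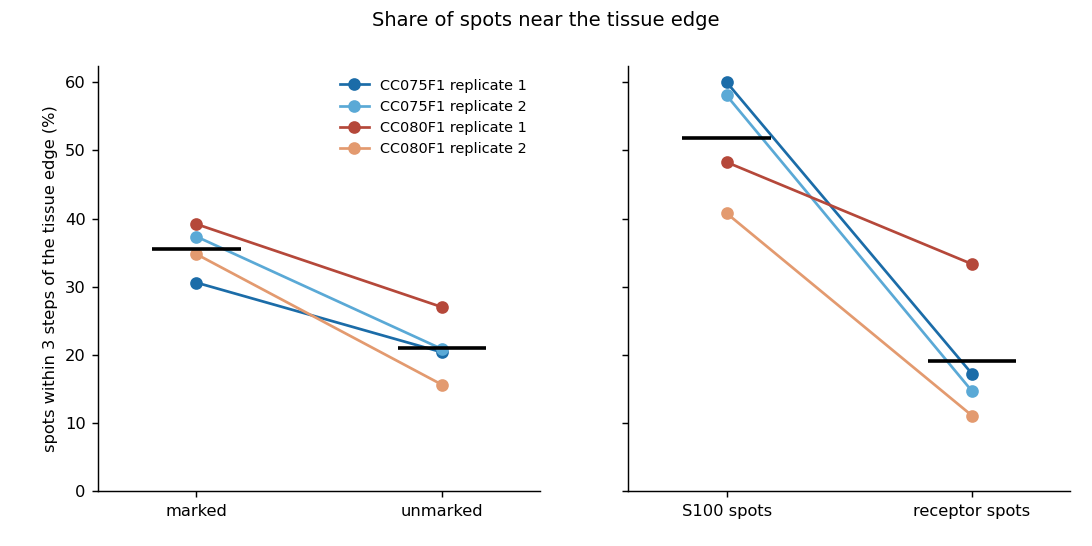
Share of spots within 3 grid steps of the tissue edge (%), in marked and depth-matched unmarked spots (left) and in S100 and receptor spots (right). Each line joins the values of a section, and black bars are means over the 4 sections. All lines fall from left to right, with mean differences of 14.5 and 32.7 percentage points.

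Marked spots also touched each other. Of the neighbours of a marked spot 6.64%, 4.63%, 7.13% and 19.97% were marked too, against 2.43%, 1.71%, 1.84% and 1.35% of the neighbours of depth-matched unmarked spots. The difference was 7.76 percentage points ± 7.31 (SD, n = 4; exact sign-flip p = 0.13) and was present in every section. In 3 sections the largest group of touching marked spots had 4 members. CC080F1 replicate 2 had a group of 36, of which 29 were S100 spots and 2 were receptor spots, at a median of 2 steps from the edge. Without that group the difference was 4.05 percentage points.

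The group of 36 touching spots differed from the other 79 marked spots of its section in more than its S100 genes. Hba-a1 and Hbb-bs, which encode hemoglobin chains of red blood cells, stood at 782 and 1399 CPM (a gene's UMIs scaled to a common library total) in the group, at 19.6 and 37.2 CPM in the other marked spots and at 55.2 and 79.2 CPM in the matched unmarked spots. Hmox1, which degrades heme, followed at 316, 72.8 and 52.3 CPM. The neutrophil-attracting chemokine Cxcl1 stood at 31.98, 9.06 and 6.41 CPM, and the chemokine Ccl6 at 124, 31.4 and 35.8 CPM. Cxcl9, a chemokine induced by interferon-gamma, was low in the group at 33.3 CPM, against 161 and 119 CPM. These are values of 1 section, with no replicate and no test, and the genes were chosen after their values had been seen.

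For the comparison of expression, each marked spot was paired in depth with an unmarked spot of its section, and UMIs were summed per class and section. The sums held 49, 91, 74 and 115 spots per class and left out the 5 rule genes. Of 10848 genes tested with edgeR, 15 were higher in marked spots at an adjusted p under 0.05 and 0 were lower, or 0.138% of all genes. At an unadjusted p under 0.05 there were 637 genes (5.87%). Without CC075F1 replicate 2 there were 44 calls, without CC080F1 replicate 2 there were 52 and without CC080F1 replicate 1 there were 5, while the DESeq2 Wald test called 2, Il1b and Ccl6. Over all genes the log2 fold change had a median of -0.004 and was above 0 in 48.6%. Without the group of 36 touching spots of CC080F1 replicate 2, calls went in both directions. Gzmc (log2 fold change -0.79), Gzmd (-1.24) and Gzmf (-1.29) were then lower in marked spots. Il1b, Ccl9, Arg1, Acod1, Fcgr2b, Acta1, Cryab and Mylpf were still called higher. Ccl6, Tnc, Il1rn, Timp1, Clec4e, Ccl8 and Tnnt3 were not. Added higher calls included Cxcl9 (0.42), Isg15 (0.40), Irf7 (0.45) and Irgm1 (0.44). In a spot, more cells of a type and more RNA per cell cannot be told apart.

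The cytokine Il1b, a product of activated neutrophils and monocytes, was the leading gene. It reached 18.2, 32.7, 17.96 and 13.9 CPM in marked spots and 4.50, 11.1, 4.36 and 3.72 CPM in unmarked spots. The classes did not overlap, a log2 difference of 1.75 ± 0.17 (SE, adjusted p = 4.07e-05 by edgeR). Il1b was detected in 130 of the 329 marked and in 67 of the 329 unmarked spots. The call was kept in 21 of 23 alternative settings. It was lost among spots more than 3 steps from the edge, where the log2 fold change was 1.00 (adjusted p = 0.206), and in spots marked by Csf3r, Cxcr2 and Retnlg, where it was 0.40 (adjusted p = 0.877).

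Il1rn, which encodes the antagonist of the interleukin-1 receptor, rose with it. Its level was 14.95, 22.8, 19.8 and 17.5 CPM in marked spots and 9.64, 12.3, 10.9 and 10.1 CPM in unmarked spots. All marked values exceeded all unmarked values, with a log2 fold change of 0.82 ± 0.15 (SE; edgeR adjusted p = 0.0185).

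Chemokine genes were among the other calls. The chemokine Ccl6 stood at 54.6, 90.1, 12.8 and 60.3 CPM in marked spots and at 23.1, 31.4, 12.4 and 35.8 CPM in unmarked spots, a log2 fold change of 1.04 ± 0.13 (SE; edgeR adjusted p = 0.000508). CC080F1 replicate 1 had next to no difference. In CC080F1 replicate 2 Ccl6 stood at 124 CPM in the group of 36 touching spots. The other marked spots of that section were at 31.4 CPM, below the unmarked 35.8 CPM. Without that group Ccl6 was not called. The related chemokine Ccl9 rose by 0.64 ± 0.10 (log2, SE; edgeR adjusted p = 0.00427), from 42.6 ± 12.9 to 67.9 ± 12.1 CPM (SD, n = 4). Ccl8, a chemokine for monocytes and other leukocytes, and Fcgr2b, the inhibitory receptor for antibodies, each rose by 0.46 on the log2 scale, just within the threshold (edgeR adjusted p = 0.0492 for both).

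Clec4e, a receptor of myeloid cells for damaged cells and fungal glycolipids, stood at 6.50, 6.25, 6.23 and 10.2 CPM in marked and 0.643, 2.60, 2.54 and 4.14 CPM in unmarked spots. The ranges did not overlap (log2 fold change 1.43 ± 0.28 SE, edgeR adjusted p = 0.0471). Acod1, which makes the metabolite itaconate in activated myeloid cells, rose by 1.303 ± 0.23 (log2, SE; edgeR adjusted p = 0.0185). Its levels were 16.3, 18.5, 3.67 and 18.9 CPM against 13.5, 7.33, 1.45 and 5.17 CPM, so the classes overlapped between sections while every section went up. Arg1, an arginine-degrading enzyme of suppressive myeloid cells, rose by 0.78 ± 0.11 (log2, SE; edgeR adjusted p = 0.00256). Among the calls, Acod1 was kept in 7 of 23 settings, Clec4e in 5 of 19, Fcgr2b in 6 of 23 and Ccl8 in 9 of 23.

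The matrix gene Tnc, made by activated fibroblasts, rose by 1.11 ± 0.20 and Timp1, an inhibitor of metalloproteinases, by 0.44 ± 0.08 (log2, SE; edgeR adjusted p = 0.0185 for both). The contractile genes Acta1, Mylpf and Tnnt3 were also called, and with them Cryab, a chaperone abundant in muscle. Acta1 stood at 0, 210, 8.80 and 0.208 CPM in marked spots and at 0, 22.2, 7.27 and 0.414 CPM in unmarked spots. The difference was present in CC075F1 replicate 2, the section with all 36 spots in which skin, muscle and fat genes reached 1% of UMIs, 3 of them marked. Without those 36 spots Mylpf was no longer called. The 8 skeletal muscle genes summed to 443 CPM in marked and 51.3 CPM in unmarked spots of that section, and to at most 23.5 CPM in any other sum.

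**Figure D3:**
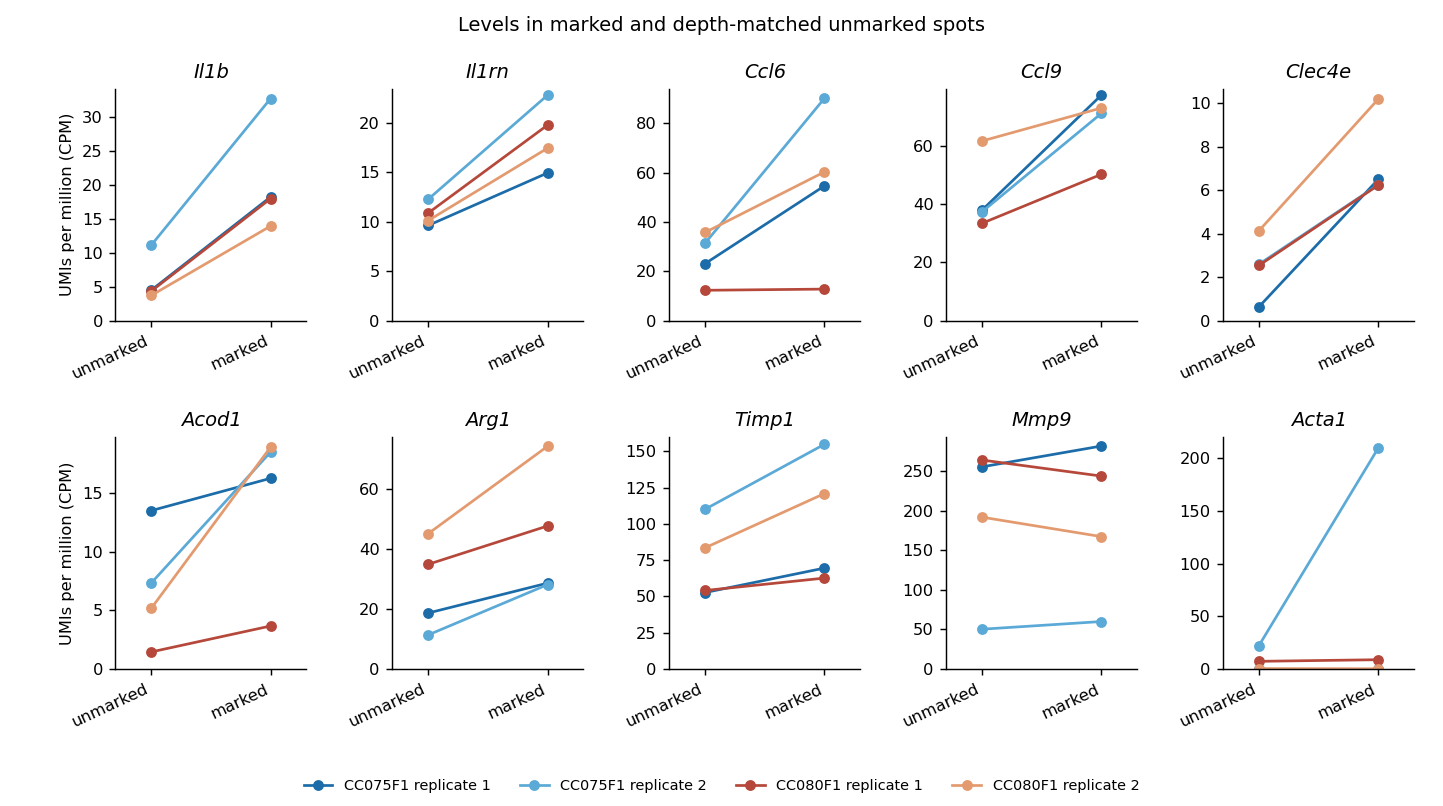
Levels in CPM of 10 genes in the summed unmarked and marked spots, with a line for each of the 4 sections. Il1b, Il1rn and Clec4e rose in every section without overlap of the classes; Mmp9 did not move in a common direction, and the muscle gene Acta1 rose to 210 CPM in CC075F1 replicate 2.

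The label of these spots was checked against 40 further neutrophil genes. Of 39 found in the table, 7 had 0 UMIs in the sums and 14 passed the filter on low counts, so the tested ones are a selected part. Of these 14, 2 were called (Clec4e and Acod1), 13 were above 0, and the median log2 fold change was 0.48, against -0.004 over all genes. Ly6g, the surface marker used to define mouse neutrophils, had 0 UMIs in marked and in unmarked spots. Il1r2, the interleukin-1 decoy receptor of neutrophils, had 23 UMIs in marked and 6 in unmarked spots, too few for the test, and was higher in each of the 4 sections. Mmp9, a protease of neutrophil granules that macrophages also make, stood at 282, 60.1, 244 and 168 CPM against 256, 50.3, 264 and 192 CPM, with a log2 fold change of -0.001 ± 0.07 (SE; edgeR adjusted p = 1.00). The 7 granule precursor genes of immature neutrophils summed to 2.60, 5.28, 1.83 and 10.4 CPM in marked spots and to 0.643, 2.84, 0.727 and 3.72 CPM in unmarked spots. The sum was higher in marked spots of each section, but 3 of the genes had 0 UMIs and none passed the filter. The neutrophil label thus rested on the rule genes, on genes shared with monocytes and on genes too low to test, and the spots are called marked spots here.

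Among 26 chemokines and cytokines that draw or sustain neutrophils, 13 were tested, 1 was called (Il1b), and the median was 0.48. Cxcl2, a ligand of Cxcr2, stood at 5.85, 5.28, 8.43 and 5.61 CPM in marked and 1.93, 6.15, 0.727 and 0.207 CPM in unmarked spots. With the unmarked spots drawn here, CC075F1 replicate 2 ran against the others. The log2 fold change of 1.404 ± 0.48 did not pass (SE, edgeR adjusted p = 0.520). Over all 2679 unmarked spots of CC075F1 replicate 2, without depth matching, Cxcl2 stood at 2.097 CPM, below its marked value of 5.28 CPM. Its call was gained in 9 of 19 settings. Cxcl1 differed by 0.56 ± 0.19 on the log2 scale (SE; edgeR adjusted p = 0.552). Csf3, which encodes granulocyte colony-stimulating factor itself, had 5 UMIs in marked and 2 in unmarked spots.

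Of 18 genes of monocytes and inflammatory macrophages, 16 were tested, with 2 called (Ccl6 and Ccl9) and a median of 0.52. The 14 tested pan-macrophage genes had 0 calls and a median of 0.11, and Adgre1, the F4/80 antigen, was at 64.1 ± 12.2 CPM in marked and 60.3 ± 13.2 CPM in unmarked spots (SD, n = 4). The 12 genes of Spp1-type macrophages had 1 call (Arg1) and a median of 0.11. Spp1 itself, osteopontin, was higher in each section, at 202, 198, 205 and 553 CPM against 105, 191, 153 and 380 CPM, but did not pass (log2 fold change 0.45 ± 0.10 SE, edgeR adjusted p = 0.104).

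The 16 tested interferon-gamma response genes were all above 0 with a median of 0.15 and 0 calls. Cxcl9 stood at 405, 389, 51.7 and 121 CPM against 382, 235, 46.1 and 119 CPM (log2 fold change 0.28 ± 0.08 SE, edgeR adjusted p = 0.401). Its call was gained in 10 of 23 settings, among them the one matched on depth and edge (0.42, adjusted p = 0.0101). Of the 11 tested genes of T and cytotoxic cells, 0 were called and the median was 0.05. Cd8a was lower in every section, at 50 UMIs in marked and 77 in unmarked spots, and did not pass (log2 fold change -0.68 ± 0.28 SE, edgeR adjusted p = 0.757).

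Hypoxia, glycolysis and cell cycle genes had 0 calls each and medians of -0.09, -0.03 and -0.08, with 13, 12 and 12 genes tested. Car9, a hypoxia marker, had 59 UMIs in marked and 81 in unmarked spots (edgeR adjusted p = 0.924). Among 16 stress and damage genes 15 were above 0, with a median of 0.32 and 0 calls. Of 11 fibroblast and matrix genes 2 were called (Tnc and Timp1), with a median of 0.33. The 5 tested platelet and erythrocyte genes had 0 calls and a median of 0.90. Krt5, a keratinocyte gene, had 0 UMIs in both classes, and Krt14 had 17 and 15. Of the 10 MC38 epithelial genes 2 were tested, with 0 calls.

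The list was also computed with position taken into account. When unmarked spots were matched on depth and also on being within 3 steps of the edge, 7 genes were called, of which 2, Il1b and Ccl9, were among the 15. Il1b then had a log2 fold change of 1.14 ± 0.19 (SE; adjusted p = 0.0101), and Ccl9 of 0.62 ± 0.10 (SE; adjusted p = 0.0101). The rest were Thbs1 (0.97), Hba-a2 (0.86), Hbb-bt (0.74), Igtp (0.47) and Cxcl9 (0.42). Among spots farther than 3 steps from the edge, 15 genes were called and 1 of them, Ccl8, was among the first 15. The others included Cxcl9 (0.53), Cxcl10 (0.38), Gbp4 (0.53) and Iigp1 (0.60), all induced by interferon, and H2-Aa (0.34), H2-Ab1 (0.42) and Cd74 (0.37) of antigen presentation by class II molecules. The list was mixed, and its largest change was that of Mgp (0.86). Col1a2 (0.64), Hmox1 (0.60), Cfb (0.58), Cnn2 (0.43), Ly6a (0.42) and Zbp1 (0.40) made up the remainder. These genes were named after their values had been seen.

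Levels were also set against the number of rule UMIs in a spot, without depth matching. Il1b stood at 7.44 ± 3.56 CPM in spots with 0, 10.7 ± 3.68 with 1, 13.7 ± 7.79 with 2 and 47.1 ± 22.8 CPM with 3 or more (SD, n = 4). In the last class it was 64.8, 59.9, 49.4 and 14.2 CPM, from 11, 26, 18 and 47 spots. The low value belonged to CC080F1 replicate 2, the section with the group of 36. Within that section Il1b was higher in the group, at 18.7 CPM, than in the other marked spots, at 11.8 CPM. Cxcl2 stood at 1.76 ± 1.15, 2.75 ± 2.82, 4.16 ± 1.15 and 13.7 ± 5.07 CPM over the same classes, and Mmp9 at 196 ± 97.1, 188 ± 95.4, 192 ± 96.0 and 181 ± 104 CPM. Il1b and Cxcl2 were thus highest in the spots with most rule UMIs, and Mmp9 stayed near one level. From 1 to 2 UMIs Il1b went from 8.11 to 7.94 CPM in CC075F1 replicate 1 and from 10.5 to 8.57 CPM in CC080F1 replicate 1. It rose in the other sections. Exactly 2 UMIs were held by 69 of the 146 S100 spots and 85 of the 102 receptor spots, so the classes differed in kind. These classes overlap with those of the test above and are descriptions.

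**Figure D4:**
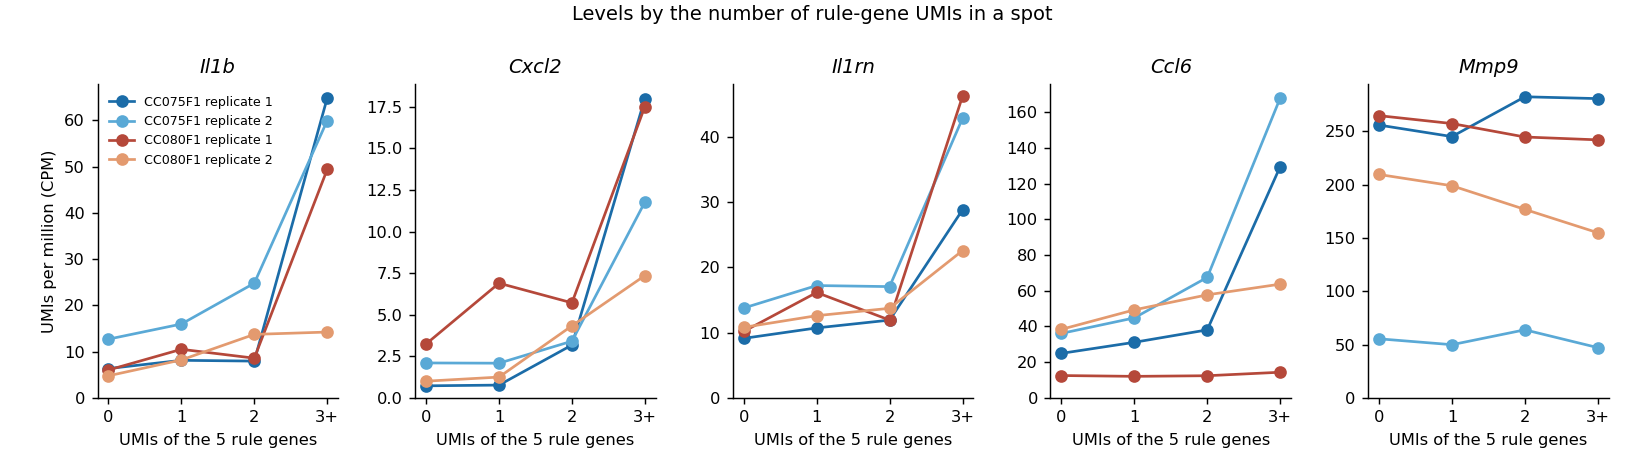
Levels (CPM) of 5 genes in all spots of a section with 0, 1, 2 and 3 or more UMIs of the 5 rule genes, with a line for each of the 4 sections. Il1b, Cxcl2 and Il1rn were highest at 3 or more UMIs in every section, with Il1b at 14.2 CPM in CC080F1 replicate 2 and at 49.4 to 64.8 CPM in the other sections.

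The division into S100 and receptor spots was then followed into the rest of the transcriptome. Against unmarked spots of the same depth, spots marked by S100a8 and S100a9 had 30 higher genes and 0 lower of 8773 tested (0.342%). Spots marked by Csf3r, Cxcr2 and Retnlg had 20 higher and 1 lower of 8449 tested (0.249% in either direction and 0.237% higher). Both comparisons draw on the same unmarked spots, so their values are set side by side. The log2 fold change of Il1b was 2.66 ± 0.29 in the first and 0.40 ± 0.32 in the second, that of Spp1 1.09 ± 0.13 and 0.20 ± 0.11, and that of Arg1 1.24 ± 0.18 and 0.50 ± 0.19 (SE). That of Cxcl9 was 0.26 ± 0.13 and 0.73 ± 0.08, that of the interferon-induced gene Isg15 0.03 ± 0.12 and 0.63 ± 0.11, and that of Ly6a 0.35 ± 0.12 and 0.63 ± 0.08 (SE). Col1a2, a collagen chain, passed in both, at 1.01 ± 0.18 and 1.24 ± 0.18.

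Tested directly within sections, S100 spots had 48 higher genes and 1 lower than receptor spots among 8400 tested (0.571% and 0.0119%, or 0.583% in all), with 497 (5.92%) at an unadjusted p under 0.05. Without CC075F1 replicate 2 there were 31 calls. This comparison was added after the values had been seen. The kinds differed in depth: S100 spots had median depths of 22269, 24598, 35758 and 42955 UMIs, and receptor spots 35684, 59839, 40220 and 44359 UMIs. With an equal draw in depth strata 35 genes were called, 25 of them among the 49. With an equal draw within and beyond 3 steps of the edge, 7 genes were called, all among the 49.

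Among genes of inflammation, Mmp12, the elastase of macrophages, differed most. It stood at 535, 38.3, 30.1 and 16.5 CPM in S100 spots and at 56.6, 1.06, 0 and 4.78 CPM in receptor spots (log2 fold change 3.38 ± 0.24 SE, edgeR adjusted p = 3.11e-16). Every section was higher in S100 spots. Il1b stood at 67.4, 72.8, 31.0 and 14.3 CPM against 7.07, 12.2, 9.79 and 15.5 CPM (1.97 ± 0.29 SE, edgeR adjusted p = 3.43e-06), with CC080F1 replicate 2 running the other way. Cxcl1 stood at 4.82, 20.1, 79.0 and 17.8 CPM against 0, 4.25, 24.5 and 13.1 CPM (1.56 ± 0.28 SE, edgeR adjusted p = 0.000378). Cxcl2, too low for the test, had 56 UMIs in S100 and 9 in receptor spots and was higher in each section.

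Spp1 stood at 438, 333, 275 and 524 CPM in S100 spots and at 173, 130, 146 and 393 CPM in receptor spots. All sections went up, with a log2 fold change of 0.98 ± 0.11 (SE; edgeR adjusted p = 3.08e-09), and it was still called with the edge held equal (0.62, adjusted p = 0.0046). Of the 12 Spp1-type macrophage genes 5 were called, Spp1, Mmp12, Arg1, Lgals3 and Slc2a1, with a median of 0.34 against -0.01 over all genes. The 14 pan-macrophage genes had 0 calls and a median of -0.17.

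Of 10 tested fibroblast and matrix genes 5 were called higher in S100 spots (Col1a1, Col1a2, Postn, Tnc and Timp1), with a median of 0.89. The levels of the whole list summed to 2505, 2194, 2671 and 2238 CPM in S100 and to 2214, 1115, 3161 and 2409 CPM in receptor spots, and were thus lower in S100 spots of both CC080F1 sections. Col1a1 stood at 188, 298, 65.8 and 91.2 CPM against 96.0, 97.3, 24.5 and 87.2 CPM, and Tnc at 43.4, 47.0, 16.0 and 9.41 CPM against 11.1, 9.57, 3.67 and 2.39 CPM. Both were higher in S100 spots of every section. Thbs1 and Ccn1, secreted proteins of the matrix and of repair, rose by 1.54 ± 0.26 and 1.44 ± 0.19 (log2, SE; edgeR adjusted p = 9.43e-05 and 2.45e-07), and were named after their values had been seen. Mylpf, Acta1 and Tnnt3 of muscle were not tested here, but the muscle list summed to 1139 CPM in S100 and 76.6 CPM in receptor spots of CC075F1 replicate 2. Their part in the result was not tested. Without the spots rich in skin, muscle and fat genes 48 genes were called, 43 of them among the 49.

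Of 12 hypoxia genes 4 were called higher in S100 spots (Ndrg1, Bnip3, Ero1l and Slc2a1), all 12 were above 0, and the median was 0.28. Slc2a1, the glucose transporter, stood at 43.4, 99.7, 115 and 227 CPM against 84.9, 77.1, 41.6 and 119 CPM, so CC075F1 replicate 1 went against the other sections (0.72 ± 0.15 SE, edgeR adjusted p = 0.0028). The metallothioneins Mt1 and Mt2, which bind metals, rose by 0.59 ± 0.12 and 0.75 ± 0.13 (log2, SE). Red cell genes moved with them: Hbb-bs stood at 24.1, 265, 145 and 566 CPM in S100 spots and at 19.2, 252, 58.7 and 207 CPM in receptor spots. Of 5 platelet and erythrocyte genes 4 were called. Their part in the other results was not tested, while without the group of 36 touching spots 38 genes were called, 37 of them among the 49.

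Of 13 tested genes of the interferon-gamma response 1 was called lower in S100 spots, Cxcl9, and 0 were above 0, with a median of -0.21. The levels of the whole list summed to 4471, 3580, 1233 and 1220 CPM in S100 spots and to 4847, 3085, 1087 and 2567 CPM in receptor spots, so that CC075F1 replicate 2 and CC080F1 replicate 1 had the higher sum in S100 spots. Cxcl9 stood at 279, 331, 63.0 and 81.4 CPM in S100 spots and at 467, 376, 29.4 and 277 CPM in receptor spots (-0.63 ± 0.15 SE, edgeR adjusted p = 0.0242). CC080F1 replicate 1 ran against the other sections. The 9 type I interferon genes had 0 calls, 0 above 0 and a median of -0.44. Of the further neutrophil genes 7 were tested, with 0 calls and a median of 0.12, and Il1r2 had 13 UMIs in S100 and 3 in receptor spots.

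**Figure D5:**
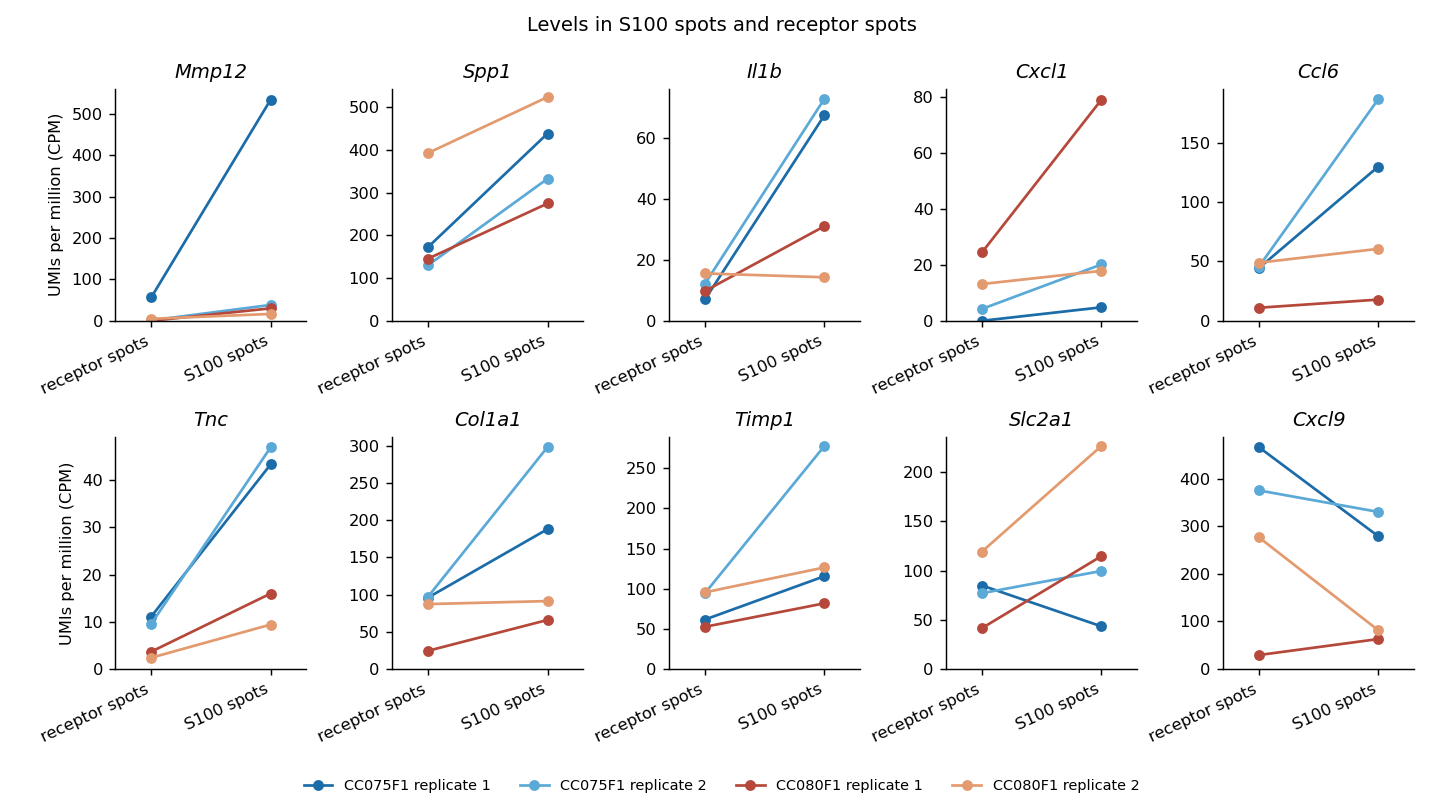
Levels (CPM) of 10 genes in the summed receptor spots and S100 spots, with a line for each of the 4 sections. Mmp12, Spp1, Cxcl1, Ccl6, Tnc, Col1a1 and Timp1 were higher in S100 spots of each section; Il1b and Slc2a1 were higher in 3 sections and Cxcl9 was lower in 3.

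With the edge held equal, the genes still called were Gm26917, Spp1, Cebpb, Mt1, Mt2, Ccn1 and Ero1l, with log2 fold changes of 1.86, 0.62, 0.78, 0.63, 0.73, 1.15 and 0.72. Cebpb encodes the C/EBP factor of emergency granulopoiesis and of macrophage activation, and stood at 101, 147, 104 and 129 CPM in S100 spots against 74.8, 104, 45.3 and 76.4 CPM in receptor spots. This draw kept 9, 18, 21 and 18 spots of each kind. Ccl6 then had a log2 fold change of 0.15 and Thbs1 of 0.82, neither of them called. How far position accounts for the remaining differences was not tested.

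The surroundings of marked spots were examined in unmarked spots that touched a marked one, 193, 353, 277 and 343 per section, against depth-matched unmarked spots that touched none. Of 12396 genes 6 were higher and 1 lower (0.0484% and 0.00807%, or 0.0565% in all), and 727 (5.86%) had an unadjusted p under 0.05. Without CC080F1 replicate 2 there were 65 calls, without CC080F1 replicate 1 there were 24 and without CC075F1 replicate 2 there were 12. Cxcl9 stood at 357, 410, 45.9 and 132 CPM next to marked spots and at 295, 262, 37.1 and 113 CPM elsewhere, higher in each section (0.37 ± 0.05 SE, edgeR adjusted p = 0.0108). Ubd, an interferon-induced ubiquitin-like protein, H2-Eb1, a class II chain, and Itgb2, the leukocyte integrin, rose by 0.60, 0.24 and 0.29 on the log2 scale (edgeR adjusted p = 0.0367, 0.0273 and 0.0367). All 17 interferon-gamma response genes were above 0, with 2 called and a median of 0.20.

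Gzmd, a granzyme of activated killer cells, was lower next to marked spots, at 0.972, 14.1, 0.308 and 27.1 CPM against 1.64, 35.0, 0.515 and 36.3 CPM (-0.86 ± 0.14 SE, edgeR adjusted p = 0.0367). The other calls were the muscle genes Acta1 and Csrp3, with levels above 10 CPM in CC075F1 replicate 2 alone. Il1b was not called next to marked spots (0.39 ± 0.13 SE, adjusted p = 0.611). With depth and edge both matched 7 genes were called, and Itgb2 was the only one of the first 7 among them. None of the 14 tested hypoxia genes was above 0, with a median of -0.14 and 0 calls.

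The strains were compared by asking whether the difference between marked and unmarked spots was the same in both. Of 10848 genes, 28 had a higher and 52 a lower difference in CC075F1 than in CC080F1 (0.258% and 0.479%, or 0.737% in all), and 1020 (9.4%) had an unadjusted p under 0.05. With library sizes in place of TMM factors 33 were higher and 20 lower, and the median of all genes moved to 0.12. The calls rested on few sections: without CC080F1 replicate 2, 3 genes were called (Hba-a1, Hbb-bs and Acta1), without CC075F1 replicate 2, 17, and without CC075F1 replicate 1, 181. Hba-a1 had log2 ratios of marked over unmarked CPM + 1 of -0.29, -0.73, 1.33 and 2.20. The strain difference was -2.99 ± 0.18 (SE; edgeR adjusted p = 5.83e-15), and without the group of 36 touching spots it was 0.15 (adjusted p = 0.955).

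The lower genes also included the granzymes Gzmg, Gzmf and Gzme of killer cells, with strain differences of -3.42 ± 0.26, -2.85 ± 0.24 and -2.93 ± 0.44 (SE; edgeR adjusted p = 1.97e-11, 2.19e-10 and 7.42e-05). A second random draw of unmarked spots gave -2.04, -1.04 and -0.21, none of them called, so these values depended on which unmarked spots were drawn. Gpx3, a secreted peroxidase, was higher, at 1.51 ± 0.26 (SE; edgeR adjusted p = 0.000634), from log2 ratios of 0.85, 1.43, -0.31 and -0.25. It was also called with the second draw, at 1.34. Gas6, S100a16, Kdr and Col15a1 differed by 1.98, 1.59, 1.51 and 1.405. With the second draw Gas6 was still called, at 2.86, while S100a16, Kdr and Col15a1 stood at 1.44, 1.14 and 0.87 and were not. Without CC075F1 replicate 2, Gas6 and Col15a1 stood at 0.70 and 0.66, and none of these 4 genes nor Gpx3 was called. Without the group of 36 touching spots Hbb-bs went from -2.66 to -0.02 and was not called, and Kdr was 1.26 and not called, while Gzmg (-2.94), Gpx3 (1.90) and Gas6 (1.98) still were. Il1b showed no called difference between the strains (-0.47 ± 0.37 SE, adjusted p = 0.743).

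Tested hypoxia and stress genes mostly had a lower difference in CC075F1 than in CC080F1. Of 13 hypoxia genes 0 were above 0 and 3 were called (Bnip3, Ero1l and Slc2a1), with a median of -0.69 against -0.01 over all genes. The whole hypoxia list summed to 1053, 956, 976 and 1559 CPM in marked spots and to 1090, 1313, 1071 and 1186 CPM in unmarked spots. CC080F1 replicate 2 alone had the higher sum in marked spots. Slc2a1 had log2 ratios of marked over unmarked CPM + 1 of -0.06, -0.52, 0.06 and 0.96. The strains did not overlap, but the replicate 1 sections stood close, at -0.06 and 0.06, and CC080F1 replicate 2 held the only large rise. The strain difference of Slc2a1 was -1.16 ± 0.19 (SE; edgeR adjusted p = 0.000365). Without the group of 36 touching spots the difference was -0.997 and still called. Of 16 stress and damage genes 1 was above 0 and 6 were called lower (Hspa1b, Atf3, Ddit3, Trib3, Hmox1 and Sqstm1), with a median of -0.75. That list summed to 757, 868, 962 and 1190 CPM in marked spots and to 789, 911, 908 and 885 CPM in unmarked spots. Hmox1 went from -1.77 to -0.68 without the group of 36 touching spots and was then not called (edgeR adjusted p = 0.0598). Of 11 endothelial and pericyte genes 2 were called higher (Kdr and Rgs5), with a median of 0.79.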

How the data were processed

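Reads had been aligned and assigned to spots by the authors with Space Ranger (1.3.1 in the submitters' processing notes, which also name GRCm38/mm10 and Seurat 5.0.1). The deposited values used were unnormalized UMI counts for each gene in each spot under tissue, with section totals of 82594649 to 146460975 UMIs, and the deposited grid positions. In each section marked and unmarked spots were drawn in equal numbers in 10 depth strata (depth without the 5 rule genes) and their counts summed. Sums were tested with edgeR 4.0.16 (quasi-likelihood, TMM factors, section as a term, filterByExpr, Benjamini-Hochberg adjustment at 0.05), with a class by strain term for strain differences. SE is the absolute log2 fold change divided by the square root of F. limma 3.58.1 and DESeq2 1.42.0 (R 4.3.3) served as alternatives. The 4 sections are biological replicates per the labels. The edgeR p-values rest on a spread between them that is estimated partly across genes. A gene can thus be called although its sections disagree, as Acta1 was with log2 ratios of 0, 3.18, 0.25 and -0.23. The edge was any grid position off tissue. In simulated data with 200 genes changed 2-fold or 4-fold among the 10848 of the marked comparison, 190 of them and 5 others were called. Smaller changes and the random draw of unmarked spots were not simulated, so these counts are not error rates of the calls reported here.

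Genes were named if called within 1 of 24 lists (up to 6 a list), if among 15 defining genes (Ly6g, Mmp9, Il1r2, Cxcl1, Cxcl2, Il1b, Csf3, Car9, Krt5, Krt14, Adgre1, Cd8a, Cxcl9, Spp1 and Arg1), or if called at a mean of at least 5 CPM with 1 direction in all sections, up to 12 each way and 5 each way for adjacent spots and strains. The members and the lists were chosen with earlier results of these data known. The division into S100 and receptor spots, its comparison, and the draws matched on edge were added after the data had been seen. A result on 1 gene is not reported here.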

Additional observations from a re-analysis of the deposited data

Results flagged for a closer look

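Values that stood apart from the other 3 sections of 4, beyond Dixon's 95% limit, which chance passes in about 1 of 20 groups, were found for 4 measures. The excess of marked neighbours in CC080F1 replicate 2 was 18.6 percentage points, against 2.93 to 5.28 in the other sections. The log2 ratios of marked over unmarked CPM + 1 in CC075F1 replicate 2 were 3.18 for Acta1 and 2.75 for Mylpf, and in CC075F1 replicate 1 the ratio of Clec4e was 2.19, where unmarked spots held 0.643 CPM.

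The difference between marked and unmarked spots itself differed between the strains for 80 genes in edgeR's interaction test. Among the named ones, the log2 difference of CC075F1 minus CC080F1 was 1.98 for Gas6, 1.59 for S100a16, 1.51 for Gpx3, 1.51 for Kdr and 1.405 for Col15a1. It was -3.42 for Gzmg, -2.99 for Hba-a1, -2.93 for Gzme, -2.85 for Gzmf and -2.66 for Hbb-bs. With a second draw of unmarked spots S100a16, Kdr, Col15a1, Gzmg, Gzme and Gzmf were not called. Without CC075F1 replicate 2 the differences of Gas6 and Col15a1 were 0.70 and 0.66 and not called. Without the group of 36 touching spots those of Hba-a1 and Hbb-bs were 0.15 and -0.02 and that of Kdr was 1.26, none of them called.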

How the results depend on the processing

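With 4 sections, and 2 per strain, exact tests could not pass 0.05, and 227 marked spots rested on 2 UMIs, so depth limits what counts as unmarked. The 15 calls of the marked comparison became 34 with unmarked spots reweighted, 56 with no depth matching, 34 with 20 depth strata, 46 with matching on depth and Ptprc, 8 for 2 or more different rule genes, 112 with no filter on low counts, 2 with the DESeq2 Wald test, and 5 to 52 leaving out a section each. Settings added after the data were seen gave 7 (depth and edge), 30 (S100a8 and S100a9 alone) and 39 (without spots of 10 or more rule UMIs). A second random draw gave 18, of which 7 were among the 15.

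For adjacent spots the 7 calls became 25 with a second draw, 2 with no depth matching, 121 with no filter and 6 to 65 leaving out a section, and, in added settings, 14 with reweighting and 12 without skin, muscle or fat spots. For the strain difference the 80 calls became 53 with library size alone, 132 with no filter, 3 to 181 leaving out a section, and, in added settings, 130 with reweighting and 21 without spots of 10 or more rule UMIs. A replicate block gave 109 calls, 72 of them among the 80; the numbers were not shown to pair sections (correlation of deviations -0.0609 over 10848 genes). S100 against receptor spots gave 49 calls, 7 with the edge matched, 93 with no filter and 31 to 69 leaving out a section.

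The edge difference of marked spots was 9.28 points without the group of 36. The ratio of marked shares turned to 1.48 for Csf3r, Cxcr2 and Retnlg alone. Among log2 values, signs turned for Cryab (-0.43, receptor genes alone), Car9 (0.10, second draw), Cd8a (0.077, 20 strata), Hba-a1 between strains (0.15, without the group of 36), Cxcl1 (-0.13 with edge matching, -0.23 with 2 or more different genes) and Adgre1 (-0.016, second draw; -0.020, 3 or more UMIs; -0.13, S100 genes alone). Mmp9, near 0 throughout, was 0.00063 with a second draw, 0.0038 with 20 strata, 0.0033 for receptor genes alone, 0.0087 without the group of 36, 0.062 in interior spots, 0.0022 without skin, muscle or fat spots, 0.0011 with DESeq2 size factors, 0.0085 with the Wald test, and -0.038 to 0.046 leaving out a section each. The cause of these changes was not tested. The named genes kept their sign in all other settings in which they were tested.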

Other observations

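Levels were also followed with the distance from the nearest marked spot, in all unmarked and 1-UMI spots. Il1b stood at 20.7 ± 8.22 CPM in marked spots, 10.2 ± 5.35 at 1 step, 8.94 ± 3.47 at 2 steps, 7.67 ± 3.45 at 3 steps and 6.90 ± 3.32 CPM at 4 or more (SD, n = 4). Cxcl9 stood at 242 ± 182, 235 ± 173, 221 ± 157, 201 ± 135 and 172 ± 114 CPM over the same distances. From marked spots to those at 4 or more steps, Cxcl9 went from 405 to 296, from 389 to 235, from 51.7 to 47.1 and from 121 to 109 CPM, lower in each of the 4 sections. These values are descriptions with no test.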
